A study of Mus musculus with 12 samples.

Results

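The genes described here are Onecut2 and 7 transcription factor genes that set intestinal identity, Hnf4a, Hnf4g, Cdx1, Cdx2, Gata4, Gata6 and Foxa3. They were chosen by symbol, and all 8 were found among the 55335 entries of the count tables and passed the filter on low counts in both comparisons. RNA was measured by bulk RNA-seq in 12 libraries of mouse small intestinal organoids, self-organising cultures of gut epithelium, in 4 groups of 3. All groups came from 1 organoid line, line26 wild type, Lgr5GFPDTR/+, derived from a female mouse with 1 Lgr5 allele replaced by a reporter that makes GFP and the diphtheria toxin receptor. The ENR control group grew for 6 days in ENR medium (EGF, Noggin, R-spondin 1) per the labels. Its sample descriptions begin with CVENR, and those of the RANKL group with Mcells. The labels do not say whether the control had the pretreatment of the other groups. The part of that pretreatment in differences between RANKL and ENR control cannot be told from them. The RANKL group had 3 µM CHIR99021, a GSK3 inhibitor, and 1.5 mM valproic acid, which inhibits histone deacetylases, for 3 days. After 1 day of ENR medium it had 6 days of RANKL, a cytokine that induces M cells, at 100 ng/mL. The RANKL II group had the same treatment as RANKL, in the set run alongside the inhibitor. The RANKL+CSRM617 group also had 40 µM CSRM617, a small molecule reported to inhibit ONECUT2. The 3 replicates of a group are separate differentiation experiments on that line, not separate animals. The authors deposited 1 raw count table for ENR control and RANKL and another for RANKL II and RANKL+CSRM617, so groups were compared within a table and levels set across tables are a description.

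ONECUT2 belongs to the ONECUT family, which binds DNA through a cut domain and a homeodomain and acts in the liver, the pancreas, neurons and the upper intestine. HNF4A and HNF4G are nuclear receptors that bind the same DNA element and together drive the absorptive program of enterocytes. CDX1 and CDX2 are caudal homeodomain factors that hold the intestinal epithelium apart from stomach and esophagus, GATA4 and GATA6 are zinc finger factors, of which GATA4 marks the proximal small intestine, and FOXA3 is a forkhead factor of endodermal epithelium that opens chromatin.

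RefSeq promoter sequence (GRCm38.p6) was matched for 3 of the 8 genes, Hnf4a, Cdx2 and Foxa3. Hnf4a has 2 start sites there, 40298 bases apart, which begin different first exons. Both Hnf4a windows and that of Foxa3 are shown because these 2 genes changed in the same direction with and without a correction for base composition when CSRM617 was added. Each is read 5′ to 3′ on the gene's strand and ends at the start site, except that of the distal Hnf4a start. That window ends 49 bases earlier, where GENCODE vM21 begins an exon of a protein-coding transcript. The windows lie at chr2:163506607-163506807 (plus strand), chr2:163546905-163547154 (plus strand) and chr7:19023540-19023789 (minus strand). Capitals mark a match to the core ONECUT motif ATTGAT on either strand.
Hnf4a distal start: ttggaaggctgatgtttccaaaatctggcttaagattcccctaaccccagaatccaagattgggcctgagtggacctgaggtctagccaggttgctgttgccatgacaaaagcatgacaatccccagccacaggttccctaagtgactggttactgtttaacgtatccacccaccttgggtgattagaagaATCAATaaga
Hnf4a proximal start: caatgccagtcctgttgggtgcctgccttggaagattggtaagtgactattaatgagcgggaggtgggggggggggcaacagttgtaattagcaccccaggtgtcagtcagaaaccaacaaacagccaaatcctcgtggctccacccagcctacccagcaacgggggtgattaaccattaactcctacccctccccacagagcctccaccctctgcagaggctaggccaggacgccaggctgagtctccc
Foxa3 start: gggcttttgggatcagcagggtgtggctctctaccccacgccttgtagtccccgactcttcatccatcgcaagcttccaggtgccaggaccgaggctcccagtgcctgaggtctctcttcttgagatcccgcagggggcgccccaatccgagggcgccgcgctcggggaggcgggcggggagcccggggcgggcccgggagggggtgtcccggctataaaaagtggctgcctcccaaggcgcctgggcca
The 250 bases before each start were searched on both strands for the ONECUT letters above, for the HNF4 letters CAAAGTCCA, for the CDX letters TTTATG, for the GATA letters AGATAA and for the FOXA letters TGTTTAC. The distal Hnf4a window held the ONECUT letters on the minus strand, as ATCAAT, 59 to 54 bases before the RefSeq start. It also held the GATA letters 52 to 47 bases before that start, across the GENCODE exon boundary. The ONECUT letters occur in 6.72% and the GATA letters in 9.99% of the 32851 promoter windows of the same length. The proximal Hnf4a window and the Foxa3 window held no match to the 5 motifs, and the Cdx2 window held the FOXA letters (3.17% of windows). The HNF4 letters, found in 0.384% of windows, and the CDX letters, found in 10.8%, were in none of these windows. A match is a description of letters and shows no binding.

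Libraries held 5795541 to 14041947 counts. Loci that collect ribosomal RNA reads took 21.87% to 35.52% of the counts in the ENR control libraries and 9.712% to 10.7% in the RANKL libraries. In the second table they took 6.438% to 6.714% without and 15.27% to 15.77% with CSRM617. Replicate pairs of RANKL II differed by little more than counting noise, with a chi-square of 1.1 to 1.43 per degree of freedom, against 2.25 to 4.21 in RANKL and 5.97 to 36.7 in ENR control. In RANKL+CSRM617 it was 1.18 for replicates 1 and 2, and 5.12 and 4.41 for their pairs with replicate 3. The edgeR p-values below are set against this spread between cultures of the same line and do not measure variation between animals. Mitochondrial mRNAs took 5.419% to 7.946% of the counts in ENR control and 2.509% to 2.877% in RANKL. They took 6.013% to 6.036% in RANKL II, and 8.593%, 9.003% and 11.02% in RANKL+CSRM617 replicates 1 to 3. The part of these shares in the results was not tested. Without RANKL+CSRM617 replicate 3, 5 of the 8 factors were higher and 2 lower with CSRM617, the same counts as with it. In that setting 10121 of all 14498 genes tested were called, 5037 as higher and 5084 as lower. Epithelial markers were abundant in every library (Epcam, an epithelial adhesion protein, averaged 490.1 to 748.7 CPM per group), while 6 immune markers summed to at most 4.398 and 8 stromal and endothelial markers to at most 3.198. Levels are in CPM, reads of a gene relative to all reads of its library, scaled by TMM within a table, and tests are edgeR's quasi-likelihood test with Benjamini-Hochberg adjustment over all genes tested. Fold changes depended on transcript GC content over all genes, which bears on each value below. In RANKL against ENR control the median log2 fold change was 0.32 for genes under 45% GC and -0.25 for genes over 55%, and in RANKL+CSRM617 against RANKL II it was -0.57 and 0.45. A second fit therefore took out, in each library, the smooth trend of level on GC content, and is called the fit with GC offsets. The part of base composition in the differences was not tested.

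**Figure D1:**
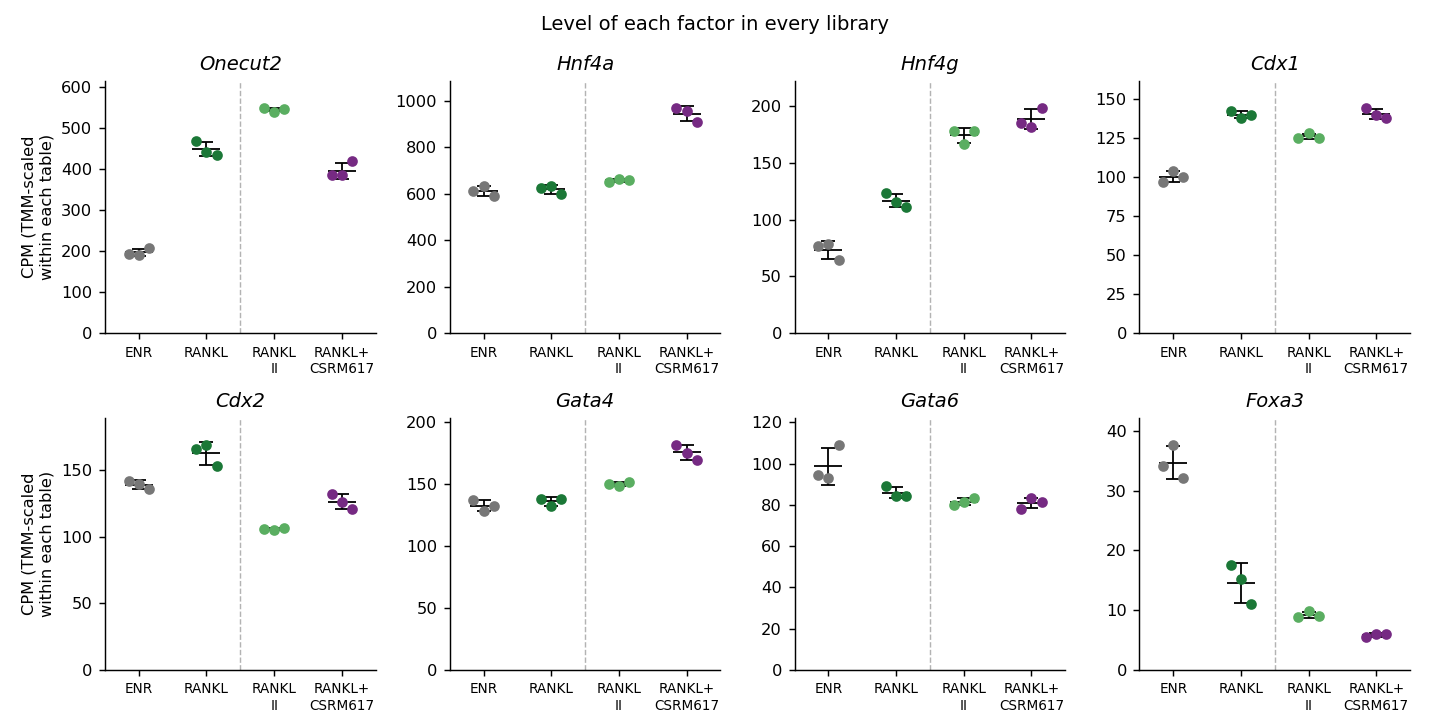
Level of each of the 8 factors in every library, in CPM (linear axis from 0), 1 point per library, with the mean and SD of 3 libraries; the dashed line separates the 2 tables, which were scaled separately. Onecut2 lay at 190.4 to 207.0 CPM in ENR control and 435.9 to 469.8 in RANKL, and Foxa3 fell from 32.22 to 37.72 CPM to between 10.97 and 17.62.

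Divided by the length of the annotated exons, the levels of the 8 genes can be ordered within a group. Hnf4a was the most abundant in all 4 groups, with a mean of 126.5 CPM per kb in ENR control and at or above the 99.1 percentile of detected genes in every library. Onecut2 was the lowest of the 8 in ENR control, at 12.13 ± 0.548 CPM per kb (SD, n = 3), and sixth of 8 in RANKL at 27.7 ± 1.1, in RANKL II at 33.64 ± 0.298 and in RANKL+CSRM617 at 24.45 ± 1.2. Its annotated exons span 16234 bases, more than those of any other of the 8, so its CPM ranks higher than its level per kb. In ENR control the order below Hnf4a was Cdx2, Cdx1, Gata4, Hnf4g, Foxa3, Gata6 and Onecut2. Foxa3 and Gata6 were the neighbours whose library ranges overlapped there, and no neighbours overlapped in the other groups. In RANKL, Cdx1 stood above Cdx2 (79.85 against 71.87 CPM per kb), the reverse of ENR control (57.17 against 61.51). Foxa3 was last in RANKL, RANKL II and RANKL+CSRM617, at 7.157, 4.524 and 2.848 CPM per kb.

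The first comparison asks how the 8 factors differ between organoids driven towards M cells by RANKL and organoids in control medium. Of the 8, 4 rose (Onecut2, Hnf4g, Cdx1 and Cdx2), 1 fell (Foxa3) and 3 did not pass the test (Hnf4a, Gata4 and Gata6). Over all 13570 genes tested, 56.7% passed, 28.7% as rises and 28% as falls, so a call by itself sets no gene apart here. The CPM of the groups did not overlap for 6 of the 8, against 63.3% of all genes. With GC offsets the same counts were 4 higher and 1 lower, against 21.7% and 34.5% of all genes. The median change was 0.13 for the 8 genes and 0 for all genes.

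Onecut2 had the largest rise of the 8 in this comparison. It measured 193.1, 190.4 and 207.0 CPM in the ENR control libraries and 469.8, 443.5 and 435.9 CPM in the RANKL libraries, 2.28 times as much on average. Every RANKL library lay above every ENR control library, with no overlap. The log2 fold change was 1.19 (SE 0.0783, edgeR adjusted p = 3.93e-09), and 0.83 with GC offsets (SE 0.0815, edgeR adjusted p = 9.98e-08). Transcripts of Onecut2 are GC-poor (42.6%), and the 1052 genes within 1 percentage point of that had a median of 0.27. Over 16 alternative settings the change of Onecut2 ranged from 0.83 to 1.22, each past the test. The gene (ENSMUSG00000045991.19, GRCm38 chromosome 18, 64340020 to 64400987, plus strand) had 906 to 1429 counts per ENR control library and 3219 to 4186 per RANKL library. In bulk samples, more cells that express a gene and more RNA per cell cannot be told apart. In the same libraries all 8 M cell markers rose, from a sum of 58.04 to 63.7 CPM to a sum of 945.7 to 1034, and the stem cell marker sum was 1524 to 1924 CPM in ENR control and 423.4 to 672.6 in RANKL. The absorptive enterocyte marker sum was 2013 to 2309 and 3855 to 5069 CPM. The part of cell make-up in the changes of the 8 factors was not tested.

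The HNF4 pair moved unequally. Hnf4g, the paralog with the narrower tissue range, measured 76.8, 78.5 and 64.21 CPM in ENR control and 123.1, 115.8 and 111.3 in RANKL. Its groups did not overlap, and the log2 fold change was 0.67 (SE 0.0922, edgeR adjusted p = 1.64e-05), or 0.30 with GC offsets (SE 0.0812, edgeR adjusted p = 0.00387). Hnf4a, the paralog shared with liver and pancreas, measured 609.8, 632.8 and 590.0 CPM in ENR control and 623.1, 631.7 and 598.3 in RANKL. Those ranges overlapped, with a log2 fold change of 0.02 (SE 0.0748, edgeR adjusted p = 0.873). The reads of Hnf4a were therefore 7.94, 8.06 and 9.19 times those of Hnf4g in the ENR control libraries and 5.06, 5.45 and 5.37 times in the RANKL libraries. The log2 ratio fell from 3.07 ± 0.12 to 2.40 ± 0.057 (SD, n = 3), a difference of -0.66 with no overlap, and of -0.27 with GC offsets. An exact two-sided permutation test gave p = 0.1 and an adjusted p = 0.1 over the 6 ratio tests, the smallest p that 3 against 3 libraries allow.

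Both CDX genes rose, Cdx1 by more. Cdx1, the caudal factor best known from the crypts, measured 96.96, 103.6 and 99.62 CPM in ENR control and 142.0, 137.8 and 139.5 in RANKL. The groups were apart, and the log2 fold change was 0.48 (SE 0.0778, edgeR adjusted p = 7.82e-05), or 0.76 with GC offsets, since its transcripts are the most GC-rich of the 8 (62.06%). Cdx2, without which the intestinal lining takes on foregut character, measured 142.1, 139.4 and 135.7 CPM in ENR control and 165.8, 169.0 and 152.7 in RANKL. Its rise was small, 0.22 (SE 0.0788, edgeR adjusted p = 0.0235), and 0.30 with GC offsets. Leaving out 1 library ended the Cdx2 call in 4 cases. The edgeR adjusted p was 0.059 without ENR control replicate 1 (change 0.23), 0.0691 without its replicate 3 (0.20), 0.0796 without RANKL replicate 1 (0.21) and 0.125 without RANKL replicate 2 (0.20). The Cdx2 to Cdx1 log2 ratio was 0.48 ± 0.066 in ENR control and 0.22 ± 0.082 in RANKL (SD, n = 3), apart in all libraries, with p = 0.1 by the exact permutation test. The difference was -0.26, or -0.47 with GC offsets.

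The GATA genes did not pass the test. Gata4, the factor of the duodenum and jejunum, measured 136.9, 128.3 and 131.6 CPM in ENR control and 137.7, 131.6 and 137.9 in RANKL, with a log2 fold change of 0.04 (SE 0.0778, edgeR adjusted p = 0.702). Gata6, expressed along the whole intestine, measured 94.27, 92.89 and 109.2 CPM in ENR control and 89.23, 84.42 and 84.36 in RANKL. The Gata6 groups did not overlap, but the log2 fold change of -0.20 (SE 0.0871) had an edgeR adjusted p = 0.0686. Without ENR control replicate 2 it was -0.25 with an edgeR adjusted p = 0.00861. Gata6 exons share 93 bases with 1010001N08Rik on the opposite strand, which had 124 to 248 counts per library, and the sources used here do not say whether the counting used strand. The Gata6 to Gata4 log2 ratio was -0.42 ± 0.14 and -0.66 ± 0.044 (SD, n = 3), apart, with p = 0.1 by the exact permutation test.

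Foxa3 was the member that fell. This forkhead gene, also expressed in the liver, measured 34.18, 37.72 and 32.22 CPM in ENR control and 17.62, 15.14 and 10.97 in RANKL, 2.38 times lower on average. The groups were apart and the log2 fold change was -1.25 (SE 0.147, edgeR adjusted p = 3.12e-06), or -1.23 with GC offsets. Its RANKL libraries varied most among those of the 8 factors, with a coefficient of variation of 23.1%, on 81 to 157 counts. Over 16 alternatives the change of Foxa3 ranged from -1.41 to -1.02, each past the test.

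**Figure D2:**
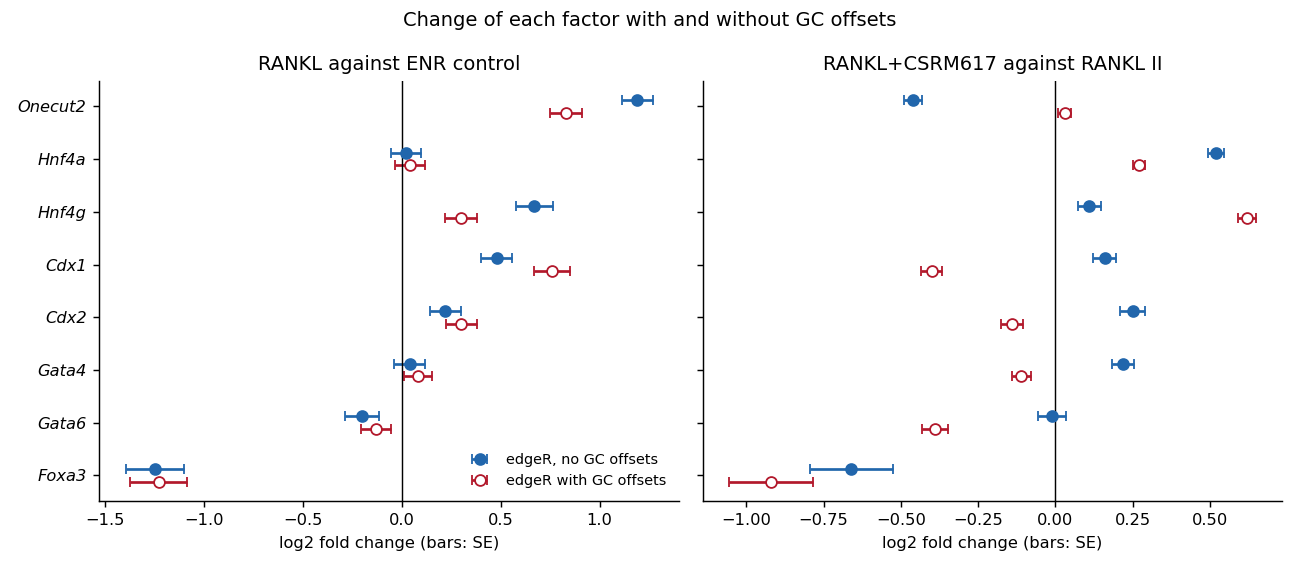
Log2 fold change of each factor with its SE, RANKL against ENR control on the left and RANKL+CSRM617 against RANKL II on the right, from edgeR without (filled) and with (open) GC offsets. Signs are the same in both fits for all 8 factors on the left, while on the right Onecut2, Cdx1, Cdx2 and Gata4 change sign.

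The second comparison asks how the factors differ when CSRM617 is present during RANKL treatment. Of the 8, 5 rose (Hnf4a, Hnf4g, Cdx1, Cdx2 and Gata4), 2 fell (Onecut2 and Foxa3) and 1, Gata6, did not pass the test. Over all 14167 genes tested, 71.4% passed, 35.2% as rises and 36.2% as falls. The CPM of the groups did not overlap for 7 of the 8, against 73.1% of all genes. With GC offsets the counts were 2 higher and 5 lower, against 33% and 30.6% of all genes. Hnf4a and Hnf4g rose and Foxa3 fell in both fits. Onecut2, Cdx1, Cdx2 and Gata4 had opposite signs in the 2 fits, and Gata6 fell with GC offsets.

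Hnf4a had the largest rise of the 8 with CSRM617 before GC offsets, and Hnf4g had it with them. It measured 649.6, 662.0 and 657.9 CPM in RANKL II and 968.2, 955.1 and 908.3 in RANKL+CSRM617, 1.44 times as much on average. All 3 libraries with the inhibitor lay above all 3 without it. The log2 fold change was 0.52 (SE 0.0265, edgeR adjusted p = 1.06e-21), or 0.27 with GC offsets (SE 0.0195, edgeR adjusted p = 8.31e-33). The 1528 genes of like GC content had a median of 0.26. Over 16 alternatives the change of Hnf4a ranged from 0.26 to 0.56, each past the test. The counts pool transcripts from the distal start, whose window printed above holds the ONECUT letters, with those from the proximal start.

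Hnf4g measured 178.2, 166.2 and 178.0 CPM in RANKL II and 184.9, 181.6 and 198.3 in RANKL+CSRM617. The groups were apart by a small margin, with a log2 fold change of 0.11 (SE 0.0369, edgeR adjusted p = 0.00647). Without RANKL II replicate 2 the rise of Hnf4g was 0.08 and did not pass the test (edgeR adjusted p = 0.0728). Hnf4g is as GC-poor as Onecut2 (42.36%), and its change was 0.62 with GC offsets (SE 0.0298, edgeR adjusted p = 4.68e-61). The 1054 genes of like GC content had a median of -0.51. The Hnf4a to Hnf4g log2 ratio went from 1.92 ± 0.069 to 2.33 ± 0.11 (SD, n = 3), a difference of 0.41 with no overlap and p = 0.1 by the exact permutation test. With GC offsets the difference was -0.36, in the other direction.

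Onecut2 itself, the described target of the inhibitor, measured 549.8, 540.7 and 548.1 CPM in RANKL II and 385.1, 386.4 and 419.4 in RANKL+CSRM617. The 3 libraries with CSRM617 lay below the 3 without it, and the log2 fold change was -0.46 (SE 0.0295, edgeR adjusted p = 4.82e-18). With GC offsets the change was 0.03 (SE 0.0218, edgeR adjusted p = 0.216). The 1088 genes within 1 percentage point of its GC content had a median of -0.48, so the fall in CPM was of the size found for such genes at large. CSRM617 is described as acting on the protein, which RNA-seq does not measure. The level of Onecut2 RNA with CSRM617 was 397.0 ± 19.4 CPM, and that in the separately scaled ENR control libraries was 196.9 ± 8.89 (SD, n = 3).

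Cdx1, Cdx2 and Gata4 rose by small amounts before GC offsets and fell with them. Cdx1 measured 124.8, 127.9 and 124.8 CPM in RANKL II and 144.0, 139.3 and 137.9 in RANKL+CSRM617, a log2 fold change of 0.16 (SE 0.0373, edgeR adjusted p = 0.000258) that was -0.40 with GC offsets (edgeR adjusted p = 8.56e-26). Cdx2 measured 105.6, 104.8 and 106.7 CPM and 132.2, 125.7 and 121.0 in the same order, a change of 0.25 (SE 0.0405, edgeR adjusted p = 4.4e-07) that was -0.14 with GC offsets (0.000339). Gata4 measured 149.6, 147.9 and 151.6 CPM and 181.3, 175.0 and 169.0, a change of 0.22 (SE 0.0358, edgeR adjusted p = 4.95e-07) that was -0.11 with GC offsets (0.00117). In CPM the groups were apart for all 3 genes. Gata6 measured 80.09, 81.29 and 83.37 CPM in RANKL II and 78.22, 83.39 and 81.31 in RANKL+CSRM617, which overlap, with a log2 value of -0.01 (SE 0.0456, edgeR adjusted p = 0.858). After GC offsets Gata6 fell by 0.39 on the log2 scale (edgeR adjusted p = 9.82e-17). The Cdx2 to Cdx1 log2 ratio was -0.25 ± 0.032 in RANKL II and -0.15 ± 0.033 in RANKL+CSRM617, and that of Gata6 to Gata4 was -0.88 ± 0.022 and -1.11 ± 0.087 (SD, n = 3). Both pairs of groups were apart, each with p = 0.1 by the exact permutation test. The Cdx2 to Cdx1 difference was 0.10, or 0.26 with GC offsets.

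Foxa3 fell in this comparison as well. It measured 8.807, 9.788 and 9.05 CPM in RANKL II and 5.41, 5.945 and 6.05 in RANKL+CSRM617, 1.59 times lower on average and apart in all libraries. The log2 fold change was -0.66 (SE 0.133, edgeR adjusted p = 2.8e-05), or -0.92 with GC offsets (SE 0.136, edgeR adjusted p = 2.19e-10), while the 1504 genes of like GC content had a median of 0.29. The level rests on 85 to 113 counts per library without and 50 to 75 with CSRM617. No library is shared by the comparisons, so the falls of Foxa3 with RANKL and with CSRM617 come from separate samples.

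**Figure D3:**
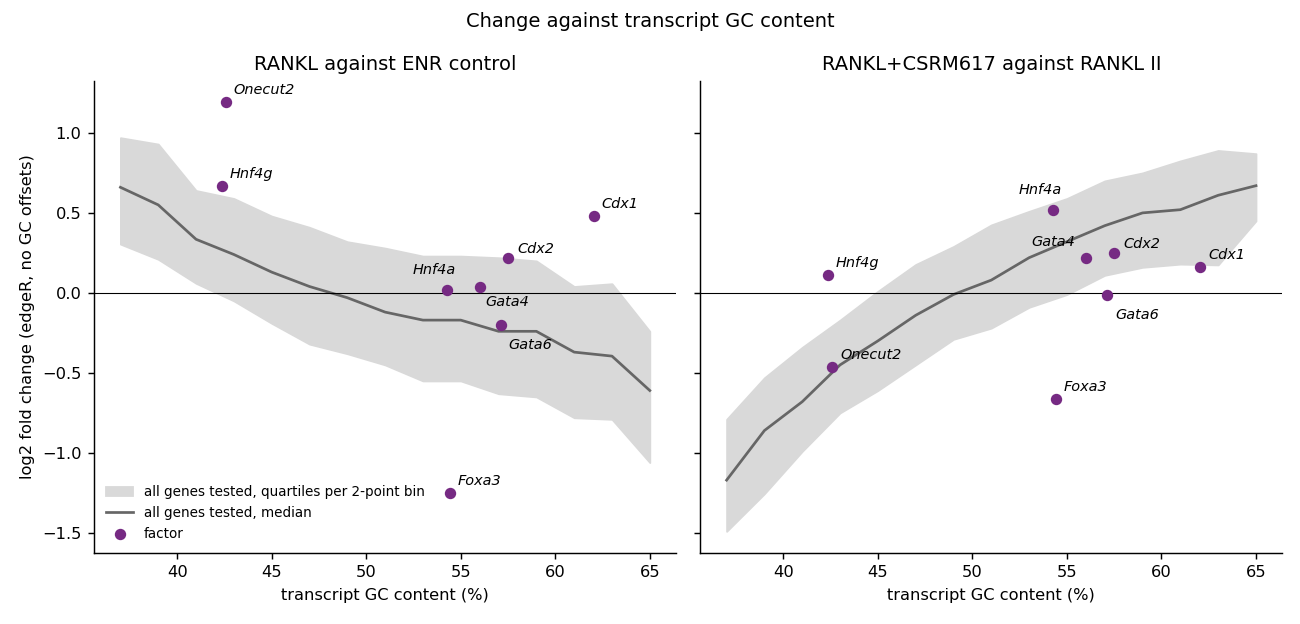
Log2 fold change from edgeR against transcript GC content in percent, with the 8 factors as points over the median (line) and quartiles (band) of all genes tested in 2-point bins of GC content. Onecut2 lay above the band at 1.19 with RANKL and on the median line at -0.46 with CSRM617, while Foxa3 lay below the band in both comparisons.

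**Figure D4:**
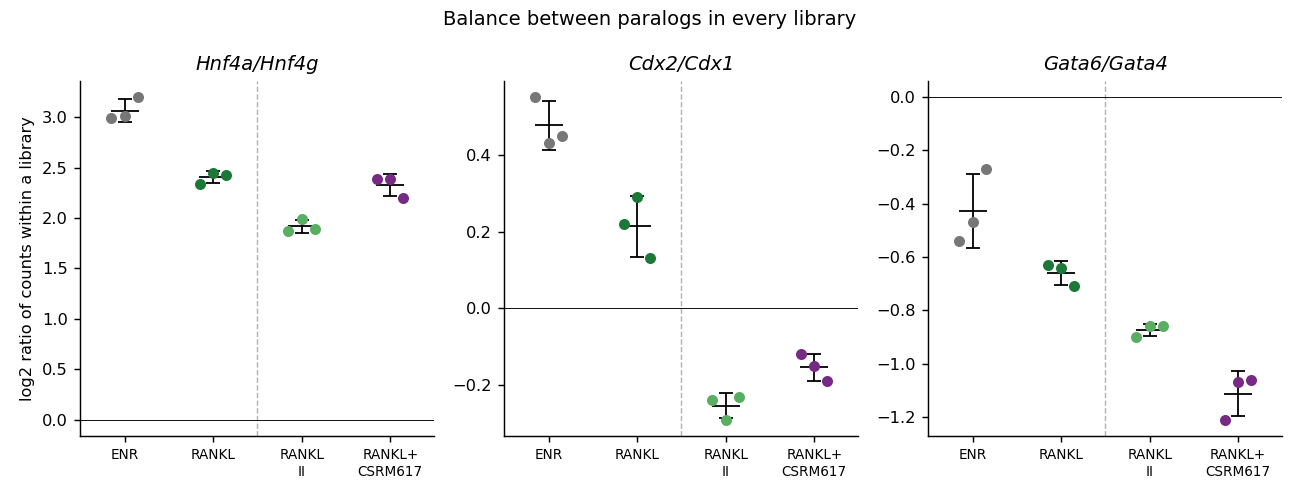
Log2 ratio of counts between paralogs within each library, 1 point per library, with mean and SD of 3 libraries; the dashed line separates the 2 tables and the vertical axes do not start at 0. Hnf4a over Hnf4g lay at 2.99 to 3.20 in ENR control and 2.34 to 2.45 in RANKL.

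The pattern of Onecut2 over the 12 libraries was compared with that of 12121 genes by the root mean square difference of log2 CPM, each gene centred on its own mean in each table. The 5 nearest genes were Raph1 (0.0652), Snx10 (0.0859), Ncoa4 (0.0905), Plekha1 (0.0914) and Tpm4 (0.0918), against a median of 0.515 over all genes. Raph1 rose by 1.21 with RANKL and fell by 0.41 with CSRM617, on the log2 scale. With GC offsets its changes were 0.9 and 0.01. Raph1 was picked for its likeness to Onecut2 in these same libraries, so its changes only describe that likeness. These 5 genes have 43.4% to 47.13% GC. With the GC trend removed the nearest were Nuak2, Rfx5, Krt7, Raph1 and Plekha3, which share 1 gene with the first 5. Among the other 7 factors Hnf4g was the most like Onecut2 (0.288), but Cdx1 was with the GC trend removed (0.215, against 0.296 for Hnf4g). Foxa3 was the least like Onecut2 in both (0.881 and 0.823).

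Factors of the same families and partner factors were read in the same fits. In RANKL against ENR control 1 of the 6 tested rose and 4 fell (median -0.76). In RANKL+CSRM617 against RANKL II 3 of 6 rose and 0 fell (median 0.23), and with GC offsets 2 rose and 2 fell. The ONECUT paralogs were rare. Onecut1 had 8 counts over the 3 ENR control libraries, 3 over RANKL, 3 over RANKL II and 2 over RANKL+CSRM617, too few to test. Onecut3 measured 10.7 ± 2.54 CPM in ENR control and 3.429 ± 1.22 in RANKL (SD, n = 3) and fell by 1.65 on the log2 scale (SE 0.256, edgeR adjusted p = 5.14e-05), opposite to Onecut2. With CSRM617 Onecut3 changed by -0.15 (SE 0.293, edgeR adjusted p = 0.662). Of the FOXA paralogs, Foxa1 rose by 0.50 with RANKL (SE 0.0842, edgeR adjusted p = 0.000108), opposite to Foxa3, and Foxa2 had a change of -0.22 (edgeR adjusted p = 0.182). With CSRM617 the values were -0.09 for Foxa1 and -0.08 for Foxa2, neither past the test without GC offsets, and -0.41 and -0.51 with them, both past it.

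Gata5, another intestinal GATA factor, fell by 1.14 with RANKL (SE 0.0932, edgeR adjusted p = 5.22e-08), from 70.12 ± 4.17 to 31.71 ± 1.35 CPM (SD, n = 3). It rose by 0.65 with CSRM617 (SE 0.0774, edgeR adjusted p = 5.76e-10), or 0.28 with GC offsets. Cdx4 had 1 count in all 12 libraries. Gata5 thus had opposite signs in the 2 comparisons.

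Other epithelial fate factors formed a list of 22, all tested. With RANKL 6 rose and 9 fell (median -0.22), and with CSRM617 11 rose and 4 fell (median 0.32, or 0.01 with GC offsets). Spib, the ETS factor that M cells require, rose from 4.407 ± 1.84 to 257.2 ± 7.87 CPM with RANKL (5.77, SE 0.155, edgeR adjusted p = 2.9e-13). Sox9, a crypt factor, fell by 0.94 (edgeR adjusted p = 5.85e-08) and Spdef, a goblet and Paneth cell factor, fell by 2.05 (edgeR adjusted p = 7.34e-07). With CSRM617, Creb3l3, a lipid metabolism factor of enterocytes, rose by 1.99 (edgeR adjusted p = 2.46e-33), Tcf7l2, the Wnt effector, rose by 0.64 and Ehf, an epithelial ETS factor, fell by 0.67. These 3 had the same direction with GC offsets, at 1.63, 0.63 and -0.40.

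Genes known to depend on HNF4 in enterocytes split with RANKL. Of 14 tested, 6 rose and 6 fell, with a median of 0.09. Alpi, the brush border alkaline phosphatase, rose by 1.98 (edgeR adjusted p = 1.95e-09) and Apoc3, an apolipoprotein, by 2.23 (edgeR adjusted p = 1.64e-07), while Acaa2, of mitochondrial fatty acid oxidation, fell by 1.37 (edgeR adjusted p = 2.54e-08). With CSRM617, where Hnf4a rose, 11 of 14 rose and 2 fell, and GC offsets gave the same counts. The median was 0.77 (0.79 with GC offsets), against -0.02 for all genes. Mttp, which loads lipid onto chylomicrons, went from 190.5 ± 1.89 to 566.1 ± 7.66 CPM (1.57, SE 0.0293, edgeR adjusted p = 2.58e-37). The apolipoprotein genes Apoa4 and Apoa1 rose by 1.85 and 1.33 (edgeR adjusted p = 4.05e-36 for each). Ttr, a transport protein named after its value was seen, was among the 2 that fell, by 0.29. Markers of enterocytes moved with this list, 4 of whose genes (Alpi, Apoa1, Apoa4 and Fabp1) are enterocyte markers themselves. The enterocyte marker sum was 5893 to 5924 CPM without and 12430 to 12720 with CSRM617, and the part of enterocyte number in the result was not tested.

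CDX-dependent genes numbered 9 tested. With RANKL 5 rose and 3 fell (median 0.28), and 4 and 4 with GC offsets (median 0.08). Those past the test included Heph, an iron oxidase, up by 1.11 (edgeR adjusted p = 5.79e-08), Mep1a, a brush border protease, up by 1.51 (edgeR adjusted p = 6.26e-06), and Sis, sucrase-isomaltase, up by 0.85 (edgeR adjusted p = 1.03e-05), or 0.36 with GC offsets. With CSRM617 6 rose and 3 fell (median 0.40), and 7 and 0 with GC offsets (median 0.67). Vil1, the brush border protein villin, rose by 0.90 (edgeR adjusted p = 2.12e-30) and Muc2, the goblet cell mucin, by 0.98 (edgeR adjusted p = 1.08e-27), while Heph fell by 0.38 (edgeR adjusted p = 1.71e-14), or had -0.06 with GC offsets, not past the test.

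Genes of the proximal small intestine and of the ileum rose and fell in each comparison. With RANKL 3 of 9 proximal genes rose and 3 fell, led by Slc40a1, the iron exporter, up by 2.58 (edgeR adjusted p = 6.77e-10), Adh6a, an alcohol dehydrogenase, up by 2.10, and Npc1l1, the sterol transporter, up by 0.93. Of 6 ileal genes tested, 4 rose and 1 fell. Cubn, the receptor for vitamin B12 with intrinsic factor, went from 8 counts over the ENR control libraries to 1862 over the RANKL libraries (7.24, SE 0.282, edgeR adjusted p = 1.02e-11), while Amn, its membrane partner, fell by 2.06 (edgeR adjusted p = 1.24e-08). Slc51a, a bile acid exporter subunit, rose by 1.49. With CSRM617 7 of 10 proximal genes rose and 3 fell, with Rbp2, a retinol carrier, up by 2.65 (edgeR adjusted p = 5.89e-28), Ckb, a creatine kinase, up by 1.87 and Adh6a up by 0.83. Of 7 ileal genes 5 rose and 2 fell, and Cubn rose by 1.22 (edgeR adjusted p = 1.23e-26), Enpp7, a sphingomyelinase, by 4.85 on 8 against 256 counts, and Slc51a by 1.08.

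Genes of other gut regions were at or near 0 except for a few. Of 17 listed, 4 were tested in each comparison. With RANKL, Hoxa13, a hindgut homeobox gene, rose from 4 to 156 counts over the 3 libraries (4.62, SE 0.4, edgeR adjusted p = 7.91e-08). Gkn3, on this list with its paralogs Gkn1 and Gkn2, fell by 5.51 (edgeR adjusted p = 1.6e-08). Gkn3 averaged 13.28 CPM in ENR control, where Gkn1 had 2 counts and Gkn2 had 0 over the 3 libraries. Its fall therefore does not show the loss of a stomach program. With CSRM617, Hoxa13 fell by 1.05 (edgeR adjusted p = 2.32e-07). Sox2 and Barx1, which specify the stomach, had 0 counts in every library.

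**Figure D5:**
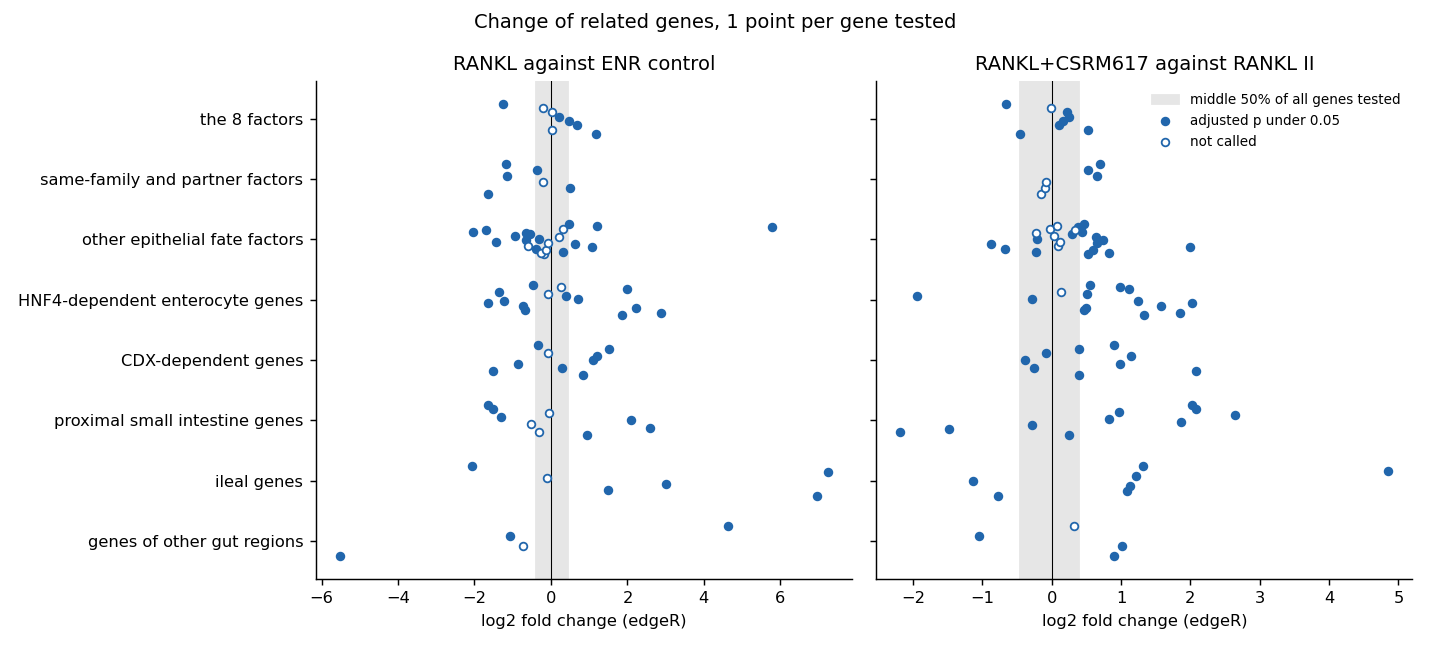
Log2 fold change of each tested gene (1 point) of the 8 factors and the 7 related lists, filled where the edgeR adjusted p is under 0.05, over the middle 50% of all genes tested (band). HNF4-dependent genes lay on both sides of 0 with RANKL (6 rose, 6 fell) and mostly above 0 with CSRM617 (11 rose, 2 fell).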

How the data were processed

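Count values were used as the authors deposited them: raw gene counts per symbol in 2 tables, made, per the submitters' processing notes, by STAR alignment to mm10 (GRCm38) and counting in HTSeq 0.13.5. Those notes also list DESeq2 1.34.0. The sources used here do not state the STAR version, the annotation or the strand setting. The deposited normalized tables (17442 and 18531 genes) hold log2 values, offset from the log2 counts by 1 constant for each library (SD at most 0.025 for genes over 1000 counts). Libraries were read as 42-bp pairs after ribosomal RNA depletion, per the labels' protocols.

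Members were matched by symbol to GENCODE vM21 (GRCm38) for Ensembl IDs, coordinates, exon length and GC content. Of 55335 entries, 53430 matched a unique symbol. Each table was fitted on its own with edgeR 4.0.16 in R 4.3.3 (quasi-likelihood, robust, TMM factors, filterByExpr defaults, no covariate, Benjamini-Hochberg adjusted p under 0.05). SE is the log2 fold change without shrinkage divided by the root of the F statistic. Ratios of counts were tested by an exact two-sided permutation. GC offsets are a natural spline (5 df) of log2 CPM deviations on transcript GC content per library. Fits were tested on simulated data. Alternatives were RLE and upper-quartile factors, other low-count filters, leaving out ribosomal RNA loci and mitochondrial genes, a replicate block, GC offsets, limma 3.58.1 on the deposited log2 tables, DESeq2 1.42.0 and leaving out each library. The 8 genes and all lists were chosen with earlier results of these data known. Beyond the 8 and their family and partner factors, which are named whatever their result, up to 3 genes per list and comparison are named by smallest p among those past the test whose average log2 CPM reached 1, with the 5 genes nearest to Onecut2. Results of some listed genes are not reported here, though the counts and medians of their lists include them. Few libraries (3 per group) limit the precision.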

Additional observations from a re-analysis of the deposited data

How the results depend on the processing

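For the RANKL comparison, Onecut2, Hnf4g, Cdx1 and Foxa3 stayed past the test under all 16 alternatives, and Hnf4a and Gata4 passed under none. The number of the 8 factors that fell with RANKL was 2 in place of 1 with upper-quartile factors (Gata6 -0.21, edgeR adjusted p = 0.0463) and ranged from 1 to 2 when each library was left out. GC offsets moved the median of all genes in that comparison from 0 to -0.11 and the share of calls that were higher from 50.62% to 38.58%. With GC offsets, and with GC offsets and the replicate block, 2 of the 8 factors were higher and 5 lower with CSRM617, and Onecut2 was 0.03 (edgeR adjusted p = 0.216 and 0.226). Among named or listed genes past the test in at least 1 of the fits, directions that also turned under both settings were those of Cdx1 (-0.40 and -0.39), Cdx2 (-0.14), Gata4 (-0.11), Hes1 (-0.05), Spdef (-0.03), Ascl2 (-0.47), Abcb1a (0.16) and Slc10a2 (0.42), and with GC offsets that of the Hnf4a to Hnf4g ratio (-0.36). The cause was not tested. The distance of Raph1 from Onecut2 was 0.0668 with the GC trend removed, when it ranked 4. Hnf4g with CSRM617 did not pass with upper-quartile factors (0.07, edgeR adjusted p = 0.0874).

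Labels number the replicates as experiments 1 to 3 in each group. Deviations of same-numbered libraries correlated by 0.018, 0.137 and 0.031 in the first table and 0.024, 0.037 and 0.058 in the second. In the second table every library correlated best with its own number, a hint from the data that same-numbered libraries belong together. Since only 1 of the 6 correlations passed 0.1 and the labels do not say that a number marks a shared day or batch, the block was kept as an alternative. With the replicate block 7701 genes were called in the first comparison (7699 without) and 10095 in the second (10114 without), and no call on the 8 factors changed.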

Other observations

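The RANKL and RANKL II groups carry the same treatment labels (100 ng/mL RANKL for 6 days on the same line), and several of the 8 factors had different levels in them. The tables were scaled separately and the groups were not tested against each other. Ratios within a library, which no scaling of whole libraries touches, also differed between the 2 sets. The paralogs differ in GC content (Hnf4a 54.27% and Hnf4g 42.36%, Cdx2 57.5% and Cdx1 62.06%), and these ratios are without GC offsets. The part of GC content in them was not tested. Hnf4a over Hnf4g was 5.06 to 5.45 in the RANKL libraries and 3.65 to 3.98 in the RANKL II libraries, and Cdx2 over Cdx1 was 1.10 to 1.23 and 0.820 to 0.855. Thus Cdx2 reads outnumbered Cdx1 reads in every library of the first set and in none of the second. In CPM, Cdx2 was 162.5 ± 8.59 and 105.7 ± 0.952, and Hnf4g was 116.8 ± 5.96 and 174.1 ± 6.89 (SD, n = 3). The stem cell marker Lgr5 also differed, at 52.14 CPM in RANKL and 11.38 in RANKL II.

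Hnf4aos, a gene on the strand opposite Hnf4a whose annotated exons do not overlap those of Hnf4a, had 2 to 8 counts in each library of the first table. In the second it had 31 to 56 without and 56 to 68 with CSRM617. It was looked at after its values were seen, and its counts were not scaled or tested.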
